A study of Mus musculus with 4 samples.

Results

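The genes described here are 10 mouse genes of the DNA damage response, the kinases Atm, Atr and Prkdc and the repair genes Brca1, Brca2, Palb2, Fancd2, Fancm, Rad50 and Trp53bp1. They were picked by their symbols from a table of 22667 genes, and all 10 had at least 75 reads over the 4 libraries, the minimum that 12497 genes passed. The cells were N2a (Neuro-2a), a mouse neuroblastoma line, and ARGLU1 is a coactivator of the glucocorticoid receptor that also binds RNA and splicing factors. Cells were transfected for 48 h with siRNA against Arglu1 (siArglu1; the methods name a single sequence) or with a non-targeting pool (siControl), and were then given 100 nM dexamethasone (Dex), a synthetic glucocorticoid, or its ethanol vehicle (Veh) for 4 h. There were therefore 4 groups, siControl with vehicle (siControl Veh) or Dex (siControl Dex) and siArglu1 with vehicle (siArglu1 Veh) or Dex (siArglu1 Dex), and every culture, controls included, was transfected. Each group is a single polyA library made from the pooled RNA of 3 cultures, so that no difference between groups has a replicate check, the libraries of a pair were not tested against each other, and the intervals given cover counting error only.

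ATM, ATR and the catalytic subunit of DNA-PK (Prkdc) are large protein kinases of the PI3K-like family. ATM and DNA-PK are recruited to double-strand breaks, whereas ATR responds to single-stranded DNA at stalled replication forks. BRCA1, PALB2 and BRCA2 act in a chain that leads resected breaks into homologous repair, and the Fanconi anaemia proteins clear DNA crosslinks with their help. These genes are also known for long transcripts with many exons, which is why each was set against genes of similar length.

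The libraries held between 66074574 and 86541444 reads on genes. Arglu1 itself had 10165 and 11825 reads in the siControl libraries (Veh, then Dex) and 2637 and 3254 in the siArglu1 libraries. Scaled by depth, knockdown left 26.3% of Arglu1 with vehicle (95% interval 25.2 to 27.5%) and 22.5% with Dex (21.7 to 23.4%), in the direction of the labels. Of 10 markers of neuroblastoma cells, 8 were at 1 cRPKM or more in all 4 libraries, while the neurofilament genes Nefl and Nefm were at or near 0. The cRPKM is the authors' read count per kilobase of mappable positions and size of the library. The summed cRPKM of these markers was 1297 and 1232 in siControl (Veh, then Dex) and higher, at 1734 and 1647, in siArglu1, with Tubb3 the largest term of the sum. The transcription factor Gata2 was an exception, at 79.36 and 74.21 cRPKM in siControl and 30.57 and 30.82 in siArglu1. This order of the libraries is kept wherever 4 values follow each other. Markers of other cell types summed to between 2.62 and 4.03 cRPKM, with 0 of 10 at 1 cRPKM or more in all libraries and the leukocyte gene Ptprc at 0 in all 4. The part of cell state in the results was not tested.

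Of 145 splicing events compared in the 10 genes, 3 cassette exons and 1 alternative 5′ splice site differed by 15 PSI or more in at least 1 comparison. PSI is the percent of a gene's transcripts in which the exon is present or the site is used. Within a single comparison, 1 to 3 of the 145 events passed, beside 0.718 to 1.95% of the events of all genes. The share of all events past 15 PSI in at least 1 comparison is not given. The 3 exons are shown here because they passed this size. The sequences are those of GENCODE M21 transcripts on GRCm38, with the exon in capitals and 15 bases of the exon on each side in lower case. They were matched to the files' mm9 events by the lengths of the exon and of both introns around it. Brca1 exon 3 of 23 (54 nt, chr11:101539981-101540034, minus strand), Palb2 exon 3 of 13 (94 nt, chr7:122128923-122129016, minus strand) and Atr exon 20 of 47 (94 nt, chr9:95890763-95890856, plus strand) are all coding.
Brca1 exon 3: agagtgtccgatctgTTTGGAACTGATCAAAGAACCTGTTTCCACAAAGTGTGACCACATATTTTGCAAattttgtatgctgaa
Palb2 exon 3: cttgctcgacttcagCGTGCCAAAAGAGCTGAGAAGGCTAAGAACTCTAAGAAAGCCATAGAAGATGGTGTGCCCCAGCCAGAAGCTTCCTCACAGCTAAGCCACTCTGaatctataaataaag
Atr exon 20: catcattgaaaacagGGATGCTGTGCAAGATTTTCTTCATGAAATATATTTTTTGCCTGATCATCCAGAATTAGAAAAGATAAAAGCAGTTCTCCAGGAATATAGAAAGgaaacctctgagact

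The Brca1 exon is a multiple of 3 in length, yet in the annotated transcript its omission joins the lower-case ends so that a TGA stop codon spans the new junction, after 26 of 1812 codons. The exons of Palb2 and Atr are not multiples of 3. Without them the annotated reading frame meets a stop after 38 of 1104 codons in Palb2 and after 1257 of 2641 codons in Atr. These are readings of the annotated sequence, and the fate of such transcripts was not measured.

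Among the kinases, Atm fell in siArglu1 in vehicle and in Dex, and it was the 1 gene of the 10 past the size threshold, which is 0.81 on the log2 scale for knockdown. Atr and Prkdc were lower in siArglu1 by less. In bulk RNA, fewer cells that express a gene and less RNA per cell cannot be told apart.

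Atm, on chromosome 9, had 3596 reads in siControl Veh and 3628 with Dex, against 1318 reads in siArglu1 Veh and 2394 with Dex. Its level per length was 5.47, 5.12, 1.99 and 2.78 cRPKM in the same order. Both siArglu1 libraries lay below both siControl libraries. The log2 ratio of siArglu1 over siControl was -1.43 in vehicle (95% counting interval -1.52 to -1.33) and -0.89 in Dex (-0.96 to -0.81), a level of 37.2% and 54.0% of siControl. Of the 382 genes whose mappable length lay within 20% of Atm's 9949 nt, 5.50% had a lower ratio in vehicle and 9.69% in Dex, beside medians of -0.50 and -0.27. In vehicle 1 of 10 members was past the threshold, against 15.8% of the 12497 genes in either direction and 8.77% lower. In Dex it was again 1 of 10, against 12.1% in either direction and 5.93% lower.

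Atr is also on chromosome 9 and had 3477 and 3740 reads in siControl (Veh, then Dex) and 2218 and 3548 in siArglu1, or 6.56, 6.54, 4.15 and 5.11 cRPKM. Knockdown left 64.8% of it in vehicle (log2 ratio -0.63, -0.70 to -0.55) and 77.7% in Dex (-0.36, -0.43 to -0.30). Prkdc, on chromosome 16, is the longest of the 10 with 12629 mappable nt and 86 exons. It had 2429, 2553, 1481 and 2219 reads, or 2.91, 2.84, 1.76 and 2.03 cRPKM, the lowest level per length of the 10 genes in every library. The log2 ratio of Prkdc was -0.69 in vehicle (-0.79 to -0.60) and -0.49 in Dex (-0.57 to -0.41). Both genes lay inside the range of their length class: 32.8% of 781 genes as long as Atr and 42.4% of 151 genes as long as Prkdc had a lower ratio in vehicle.

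**Figure D1:**
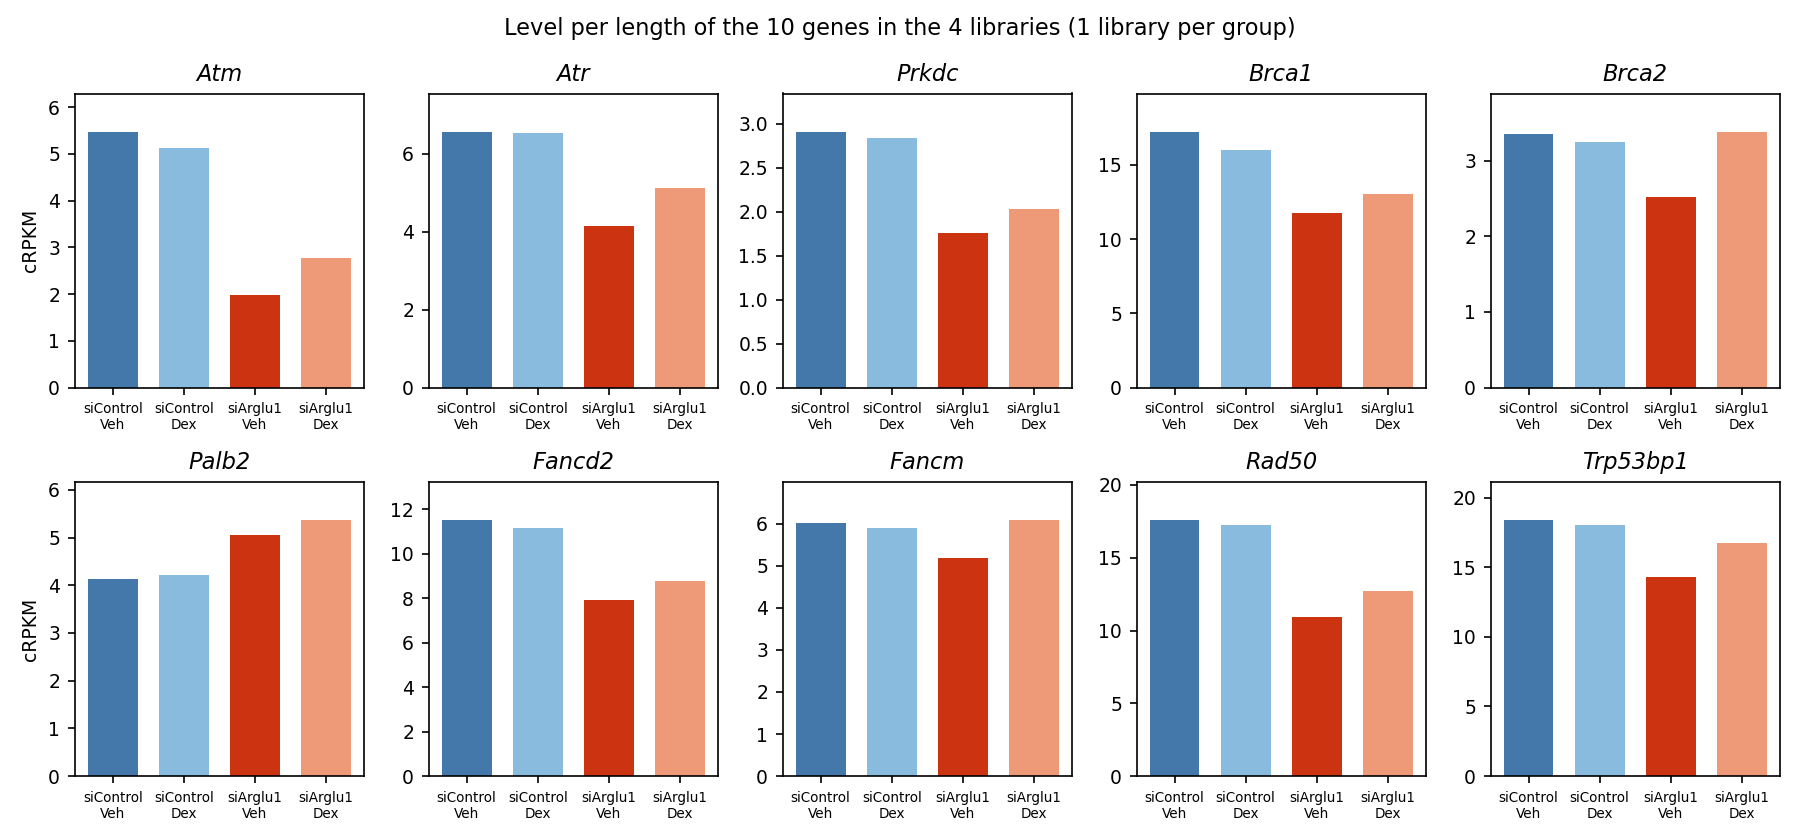
Level per length (cRPKM, linear axis from 0, each panel with its own scale) of the 10 genes in the 4 libraries, 1 bar per library and no error bar because each group is 1 library. Relative to its control, Atm shows the largest step of the 10 in vehicle, from 5.47 in siControl Veh to 1.99 in siArglu1 Veh, and Palb2 is higher in both siArglu1 libraries (5.06 and 5.36) than in the siControl libraries (4.14 and 4.22).

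The mediators of homologous repair did not move alike. Brca1, which with its partner BARD1 directs breaks to recombination, had 7424, 7419, 5108 and 7344 reads in the 4 libraries (17.22, 15.97, 11.76 and 13.01 cRPKM). Its log2 ratio was -0.52 in vehicle (-0.57 to -0.47) and -0.30 in Dex (-0.35 to -0.26). Both siArglu1 libraries were below both siControl libraries in level per length.

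Palb2, the scaffold that joins BRCA1 to BRCA2, went the other way. It had 1012, 1112, 1248 and 1718 reads (4.14, 4.22, 5.06 and 5.36 cRPKM), and both siArglu1 libraries lay above both siControl libraries. The log2 ratio was 0.32 in vehicle (0.20 to 0.45) and 0.34 in Dex (0.23 to 0.45), short of the threshold, and 81.6% and 80.0% of 2942 genes of similar length had a lower ratio. With 3702 mappable nt Palb2 is the shortest of the 10 genes, although 69.4% of the genes compared are shorter still.

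Brca2, the last of that chain, had 2365, 2465, 1788 and 3120 reads (3.35, 3.24, 2.52 and 3.38 cRPKM). Here siArglu1 Veh stood below the other 3 libraries, which were close to each other. The log2 ratio was -0.38 in vehicle (-0.47 to -0.29) and 0.05 in Dex, where the interval of -0.03 to 0.13 includes 0. Both ratios lay above the medians of -0.53 and -0.30 of 300 genes of similar length. In Dex the ratio of Brca2 was also above their upper quartile of -0.02, with 79.7% of them lower.

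Of the Fanconi anaemia genes, Fancd2, whose protein is ubiquitinated when crosslinks block replication, had 3994, 4171, 2773 and 3988 reads (11.50, 11.14, 7.92 and 8.77 cRPKM). Knockdown left 70.5% of Fancd2 in vehicle and 78.3% in Dex (log2 ratios -0.50, -0.57 to -0.43, and -0.35, -0.42 to -0.29). Fancm, a DNA translocase that anchors the Fanconi core complex, was nearer to the control level. It had 3071, 3240, 2671 and 4066 reads (6.02, 5.89, 5.19 and 6.08 cRPKM), with a log2 ratio of -0.18 in vehicle (-0.25 to -0.10) and 0.04 in Dex (-0.03 to 0.11). As in Brca2, siArglu1 Veh was the low library of Fancm. Genes of its length had medians of -0.42 and -0.22, and with the trend on length removed both ratios of Fancm were 0.25.

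Rad50 and Trp53bp1 act early at breaks and had, with Brca1, the highest levels per length of the 10 genes in siControl Veh. Rad50, the ATPase of the MRE11 complex, had 5925, 6280, 3706 and 5623 reads (17.57, 17.27, 10.9 and 12.73 cRPKM). The log2 ratio of Rad50 was -0.65 in vehicle (-0.71 to -0.60) and -0.45 in Dex (-0.50 to -0.40), and 19.0% and 22.1% of 1998 genes of similar length had a lower one. After Atm, this was the lowest place of the 10 genes in their length classes in both states. Trp53bp1 encodes 53BP1, which shields breaks from resection and favours end joining. It had 9182, 9711, 7210 and 10979 reads (18.36, 18.01, 14.31 and 16.76 cRPKM), with a log2 ratio of -0.33 in vehicle (-0.37 to -0.28) and -0.11 in Dex (-0.15 to -0.07). These lie above the medians of 914 genes of its length (-0.42 and -0.21), and with the trend on length removed both ratios of Trp53bp1 were 0.10.

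**Figure D2:**
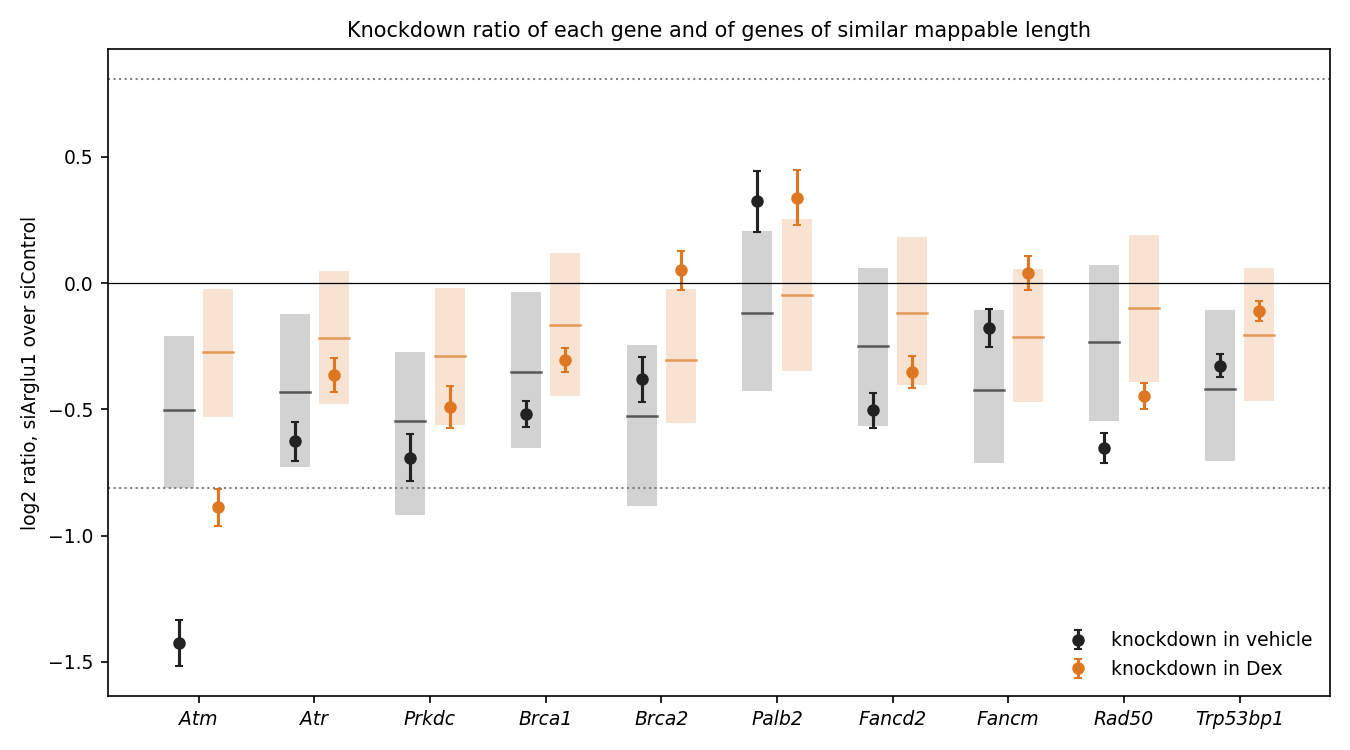
Log2 ratio of siArglu1 over siControl for the 10 genes in vehicle (black points) and Dex (orange points), with 95% intervals of counting error. The shaded boxes span the quartiles of genes within 20% of each gene's mappable length with their median as a line, and the dotted lines mark 0.81 in either direction. Atm lies below its boxes in both states (-1.43 and -0.89), Rad50 just below (-0.65 and -0.45) and Palb2 just above (0.32 and 0.34). Brca2 lies just above its box in Dex only (0.05).

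Over the 10 genes, 9 had a log2 ratio below 0 in vehicle, against 49.7% of all genes compared and 79.5% of the 1939 genes of at least 5000 nt. Of those long genes, 18.8% were past the threshold and lower in vehicle and 9.18% in Dex, where of the 10 genes Atm was. At 1.5-fold in either direction, 4 of the 10 passed in vehicle (Atm, Atr, Prkdc and Rad50) against 28% of all genes, and 1 passed in Dex against 22.8%. With Dex over vehicle 0 of the 10 passed 1.5-fold, against 2.14% in siControl and 2.38% in siArglu1. As an alternative to the size rule, an additive edgeR model of knockdown and Dex over the 4 libraries called 8 of the 10 for knockdown, but it also called 61.6% of all genes. For Dex it called 0 of the 10, against 1.04% of all genes. In Dex 7 of 10 were below 0, against 49.7% of all genes and 69.1% of those of at least 5000 nt. The median of the 10 was -0.51 in vehicle and -0.33 in Dex, beside 0.004 and 0.003 over all genes compared.

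Length moved with these ratios across the whole table. Spearman's rho of the log2 ratio on mappable length was -0.40 in vehicle and -0.23 in Dex over 12484 genes of the same libraries, given as a description. The median ratio in vehicle was 0.33 for genes up to 1000 nt and -0.57 for those over 9000 nt. In Dex the same classes had medians of 0.14 and -0.32. The 10 genes have a median mappable length of 7647 nt against 2708 nt over all genes compared, a median of 27.5 exons against 8, and a median GC content of 45.0% against 50.1%. All but Palb2 are longer than 5000 nt.

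Set against genes of similar length, 6 of the 10 lay below the median of their class in vehicle and in Dex (Atm, Atr, Prkdc, Brca1, Fancd2 and Rad50), and 4 lay above it (Brca2, Palb2, Fancm and Trp53bp1). The median of the 10 class medians was -0.42 in vehicle and -0.21 in Dex. After the trend on length was removed, the median of the 10 was -0.11 in vehicle and -0.13 in Dex, with 6 of 10 below 0 in each. For Atm the ratio after removal was -0.89 in vehicle and -0.62 in Dex. In Dex, Atm was therefore past 0.81 as measured and short of it once the trend was removed.

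**Figure D3:**
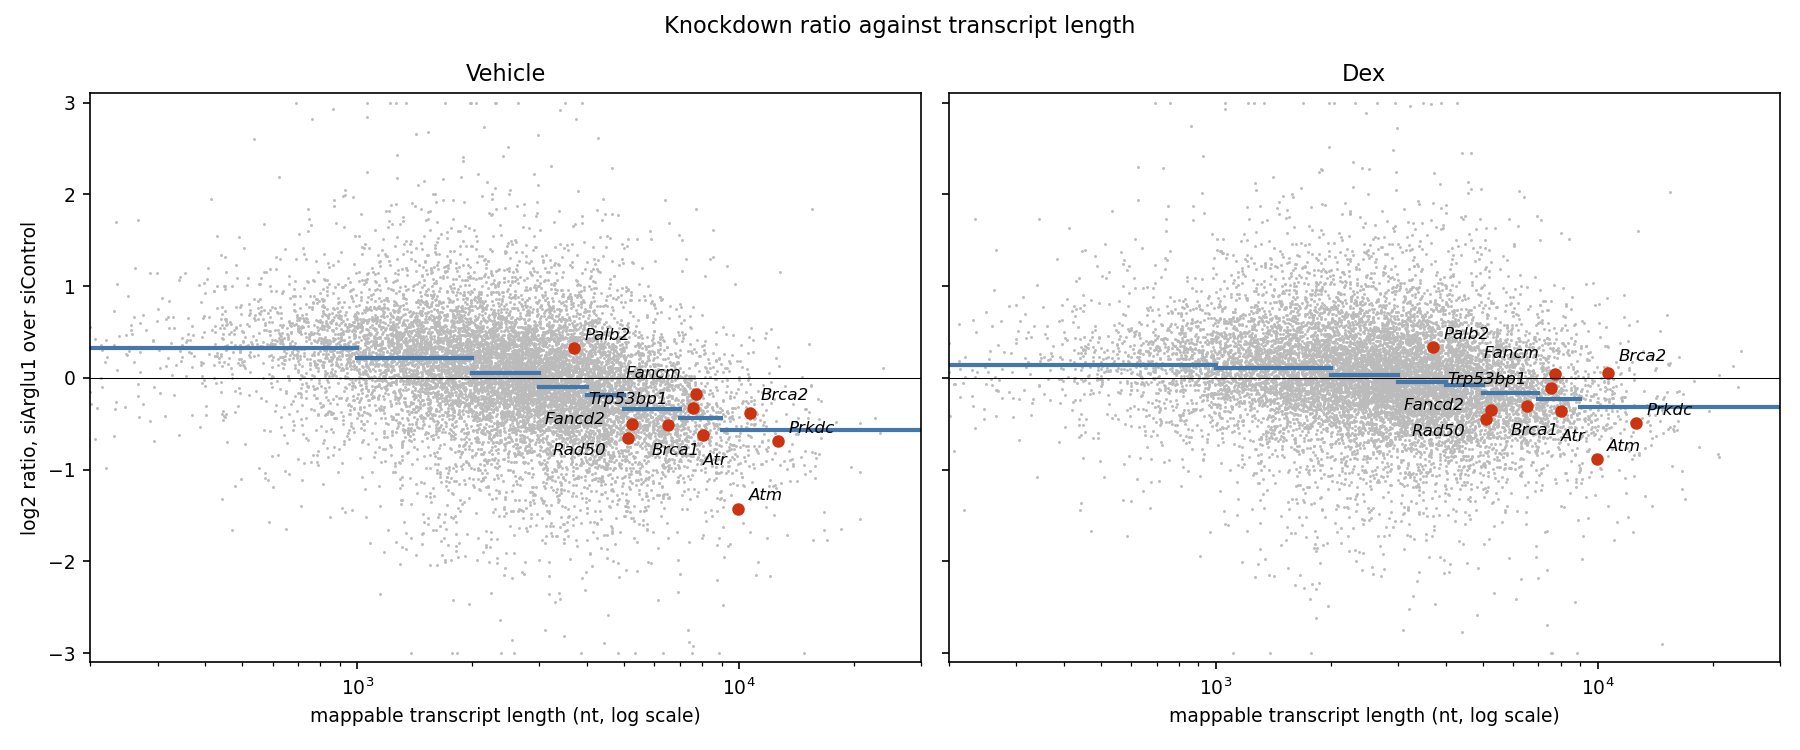
Log2 ratio of siArglu1 over siControl against mappable transcript length (log axis) for the genes compared (grey), in vehicle on the left and Dex on the right, with values past 3 in either direction drawn at 3. Blue lines are the medians of 8 length classes, which run down from 0.33 to -0.57 (vehicle) or from 0.14 to -0.32 (Dex), and red points are the 10 genes, with Atm lowest at -1.43 and -0.89.

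Knockdown in vehicle and knockdown in Dex share no library, and the ratio was nearer to 0 in Dex for 7 of the 10 genes without a change of sign. Brca2 and Fancm passed to the other side of 0 with intervals that include it, and Palb2 had nearly the same ratio in both. The ratio in Dex minus that in vehicle was 0.54 for Atm (counting interval 0.42 to 0.65) and 0.43 for Brca2 (0.32 to 0.55), beside 0.23 and 0.22 for the medians of their length classes. For Palb2 it was 0.01 (-0.15 to 0.18). The other 7 genes had differences between 0.15 and 0.26, beside class differences of 0.13 to 0.26.

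Dex by itself moved none of the 10 genes past its threshold of 1 on the log2 scale. In siControl cells 0 of 10 passed, against 0.464% of all genes, and the ratios of Dex over vehicle ran from -0.10 for Brca1 to 0.04 for Palb2 with a median of -0.03. Of the 10, 8 were below 0, as were 51.7% of all genes. The median of the class medians was -0.03, and 4 of the 10 lay below the median of their class. With the trend on length removed, 3 of the 10 were below 0. Atm was at -0.09 (-0.15 to -0.02) and Brca1 at -0.10 (-0.15 to -0.05).

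In siArglu1 cells 0 of 10 passed as well, against 0.392% of all genes, but all 10 had a ratio of Dex over vehicle above 0, where 50.3% of all genes were below it. The ratios ran from 0.05 for Palb2 to 0.45 for Atm (0.35 to 0.55), with Brca2 at 0.39 (0.31 to 0.48) and a median of 0.19. Length moved with this ratio too, with a rho of 0.54 over 12484 genes, and the median of the class medians was 0.17. With the trend removed the median of the 10 was 0.02. Of the genes as long as Atm, 91.9% had a lower ratio. This comparison shares siArglu1 Veh with knockdown in vehicle and siArglu1 Dex with knockdown in Dex, so a low value in siArglu1 Veh enters both.

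The other genes of these pathways were taken from 6 lists with 84 genes compared. In vehicle 2 of 84 rose past the threshold (7% of all genes did) and 1 fell (8.77% of all genes), with a median of -0.03. In Dex 1 rose (6.19% of all genes) and 1 fell (5.93%), with a median of 0.002. With Dex against vehicle 0 of 84 passed in siControl (0.464% of all genes did) or in siArglu1 (0.392%). The genes of the 6 lists have a median mappable length of 2966.5 nt, shorter than the 10 genes.

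Xrcc2, a gene of homologous repair, rose in both states. It had 1084 and 1114 reads in siControl, then 2045 and 2537 in siArglu1, a log2 ratio of 0.94 in vehicle (0.83 to 1.05) and 0.90 in Dex (0.80 to 1.001). Both siArglu1 libraries stood above both controls, and 96.2% and 95.4% of genes of its length had a lower ratio. Rnf168, the ubiquitin ligase that marks histones for 53BP1, fell in both states. It had 5409, 5674, 2810 and 3844 reads, with log2 ratios of -0.92 (-0.99 to -0.86) and -0.85 (-0.91 to -0.79). Fancf, a core complex gene, was past the threshold in vehicle at 0.82 (0.66 to 0.97) and short of it in Dex at 0.32 (0.18 to 0.46). The difference between the states of Fancf was not tested.

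The remaining PI3K-like kinases lay in the middle of their length classes, where between 34.9% and 62.9% of genes had a lower ratio in either state. Smg1, the kinase of nonsense-mediated decay, was at -0.80 in vehicle and -0.53 in Dex with 15492 mappable nt. Trrap, a scaffold without kinase activity, was at -0.60 and -0.30, and Mtor, the growth kinase, at -0.43 and -0.11. The chaperone genes Telo2 (-0.12 and -0.04) and Tti1 (0.11 and 0.28), whose products stabilise these kinases, lay nearer to 0 or above it in vehicle. They are shorter, with 3481 and 3781 nt. In their length classes Telo2 was also in the middle, with 46.4% and 48.9% of genes lower. For Tti1 68.9% and 76.5% were lower.

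Direct partners of the 10 gene products did not share their ratios throughout. Bard1, the partner of BRCA1, was at -0.53 in vehicle and -0.35 in Dex, near Brca1's own -0.52 and -0.30. The partners of RAD50 were close to 0, with Mre11a at -0.10 and 0.002 and Nbn at -0.04 and 0.02. Atrip, which brings ATR to DNA, was at -0.02 and -0.11. The effector kinases Chek1 (-0.08 and -0.13) and Chek2 (0.14 and 0.09) lay between -0.13 and 0.14, and Fanci, the partner of FANCD2, was at -0.17 and 0.22. All of these were short of the threshold. Mre11a (3236 nt), Nbn (2484 nt) and Atrip (2573 nt) are shorter than Rad50 (5105 nt) and Atr (8025 nt). With the trend on length removed, the ratios in vehicle and Dex were -0.04 and 0.02 for Mre11a and -0.08 and -0.02 for Nbn. Rad50 was then at -0.39 and -0.32. Atrip was at -0.05 and -0.14 beside Atr at -0.18 and -0.14. Fanci was at -0.01 and 0.29 beside Fancd2 at -0.23 and -0.22, and Bard1 at -0.23 and -0.20 beside Brca1 at -0.15 and -0.13.

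**Figure D4:**
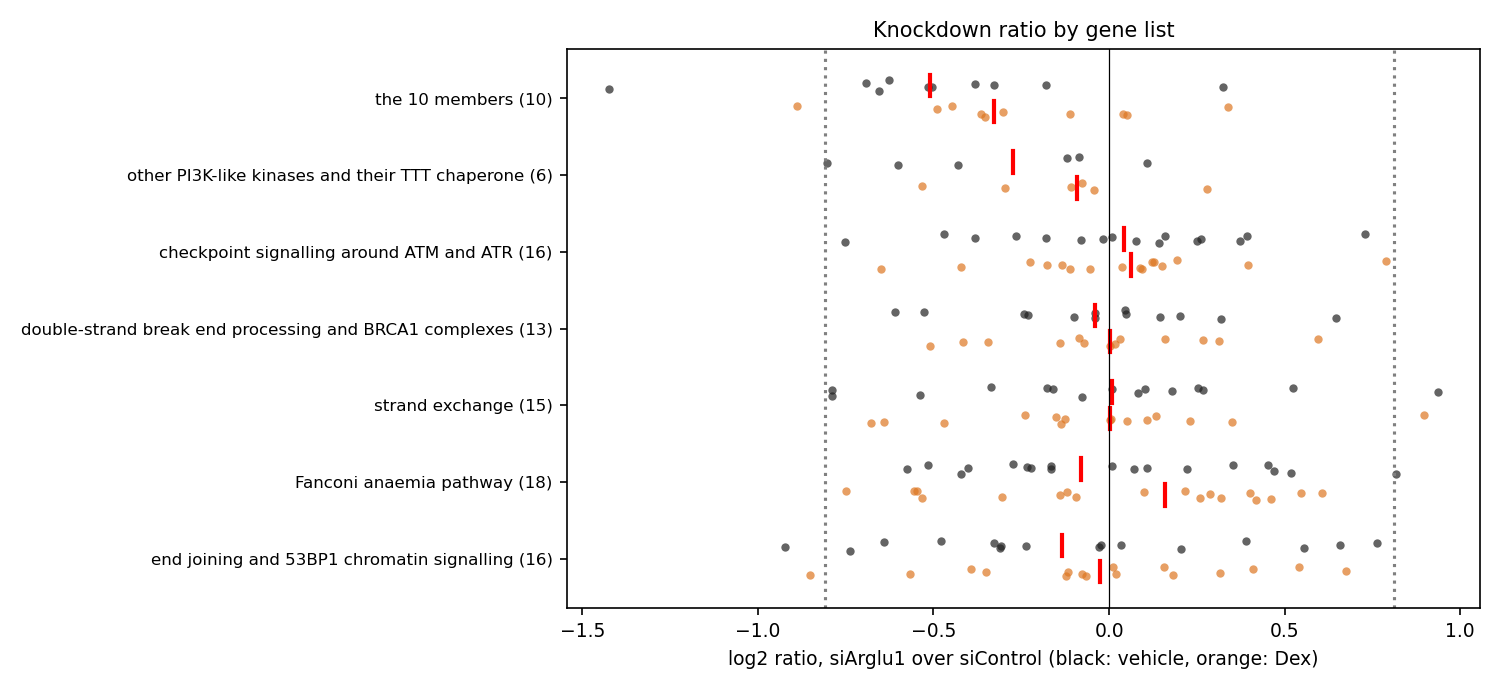
Log2 ratio of siArglu1 over siControl for each gene of the 10 members and of 6 lists of pathway genes (number of genes in brackets), in vehicle (black) and Dex (orange), with list medians as red bars and dotted lines at 0.81 in either direction. The median of the 10 genes is -0.51 in vehicle and -0.33 in Dex, while that of the other PI3K-like kinases and their chaperone is -0.27 and -0.09 and those of the other 5 lists lie between -0.13 and 0.16.

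The splicing tables held 199 events of the 10 genes, of which 145 had a PSI in all 4 libraries and enough junction reads in at least 3. Of 101 cassette exons compared, 80 (79.2%) were over 90 PSI in all 4 libraries and 6 (5.94%) were under 10, against 64.5% and 17.4% of the cassette exons of all genes. All compared cassette exons of Atm (7), Prkdc (10), Brca2 (4) and Rad50 (11) were over 90 PSI in all 4 libraries. For Atm, the gene past the size threshold, this rests on little in siArglu1 Veh. There 2 of its 7 exons had the lowest coverage score (N), 2 the next (VLOW) and 3 the score OK. Of the 10 exons of Prkdc in siArglu1 Veh, 3 scored N and 1 VLOW. Coverage was thinner in that library: the share of the 10 genes' events with the best coverage score was 27.6% in siArglu1 Veh, against 51.0% and 52.4% in the siControl libraries and 48.3% in siArglu1 Dex. Over the events of all genes it was lower there too, at 53.9% against 64.9%, 66.5% and 68.3%. Knockdown in vehicle moved 3 of the 145 events by 15 PSI or more (1.95% of 57220 events of all genes did), and knockdown in Dex 1 (1.52%). Dex moved 1 in siControl (0.718%) and 1 in siArglu1 (0.947%).

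The 54-nt exon 3 of Brca1 was less included after knockdown in both states. Its PSI was 53.8 and 55.8 in siControl (Veh, then Dex) and 28.45 and 32.65 in siArglu1, with the best coverage score (SOK) in all 4. For alternative splice sites, SOK stands for 100 or more junction reads, OK for 40 to 99, LOW for 20 to 39 and VLOW for 10 to 19. The reads behind the scores of cassette exons are not given. The difference was -25.35 PSI in vehicle and -23.15 PSI in Dex, with both siArglu1 libraries below both controls. Dex changed it by 2 PSI in siControl and 4.2 PSI in siArglu1. The tables mark this event as complex, that is, part of its reads join other sites than the 3 junctions of a plain cassette exon.

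A second Brca1 event, an alternative 5′ splice site 240 nt downstream of the reference site (chr11, position 101412843 in mm9), had a PSI of 16.99 and 28.98 in siControl and of 43.6 and 29.6 in siArglu1. These rest on 44, 39, 11 and 35 junction reads. The difference was 26.61 PSI in vehicle and 0.62 PSI in Dex, and the high library is the one with 11 reads.

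The 94-nt exon 3 of Palb2 was at 75.51, 81.48, 94.29 and 90.16 PSI in the same order of libraries. It was more included in siArglu1 by 18.78 PSI in vehicle and by 8.68 PSI in Dex, the second short of the threshold. The siArglu1 libraries lay above both controls, with a coverage score of LOW in siArglu1 Veh and OK in the other 3. Palb2 was thus higher both in level and in inclusion of this exon in siArglu1.

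The 94-nt exon 20 of Atr was lower with Dex than with vehicle in both siRNA states. Its PSI was 94.74 with vehicle and 77.22 with Dex in siControl, and 89.47 and 62.67 in siArglu1. Dex over vehicle differed by -17.52 PSI in siControl and by -26.8 PSI in siArglu1, and these comparisons share no library. The coverage score was OK in the siControl libraries and was VLOW with vehicle and LOW with Dex in siArglu1. Knockdown differed by -5.27 PSI in vehicle and by -14.55 PSI in Dex, just short of the threshold. Other exons with a difference nearly as large were a 671-nt exon of Palb2 (13.7 PSI for knockdown in Dex), a 39-nt exon of Fancd2 (13.5 PSI for knockdown in vehicle) and a 207-nt exon of Fancm (-13.38 PSI for knockdown in Dex).

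**Figure D5:**
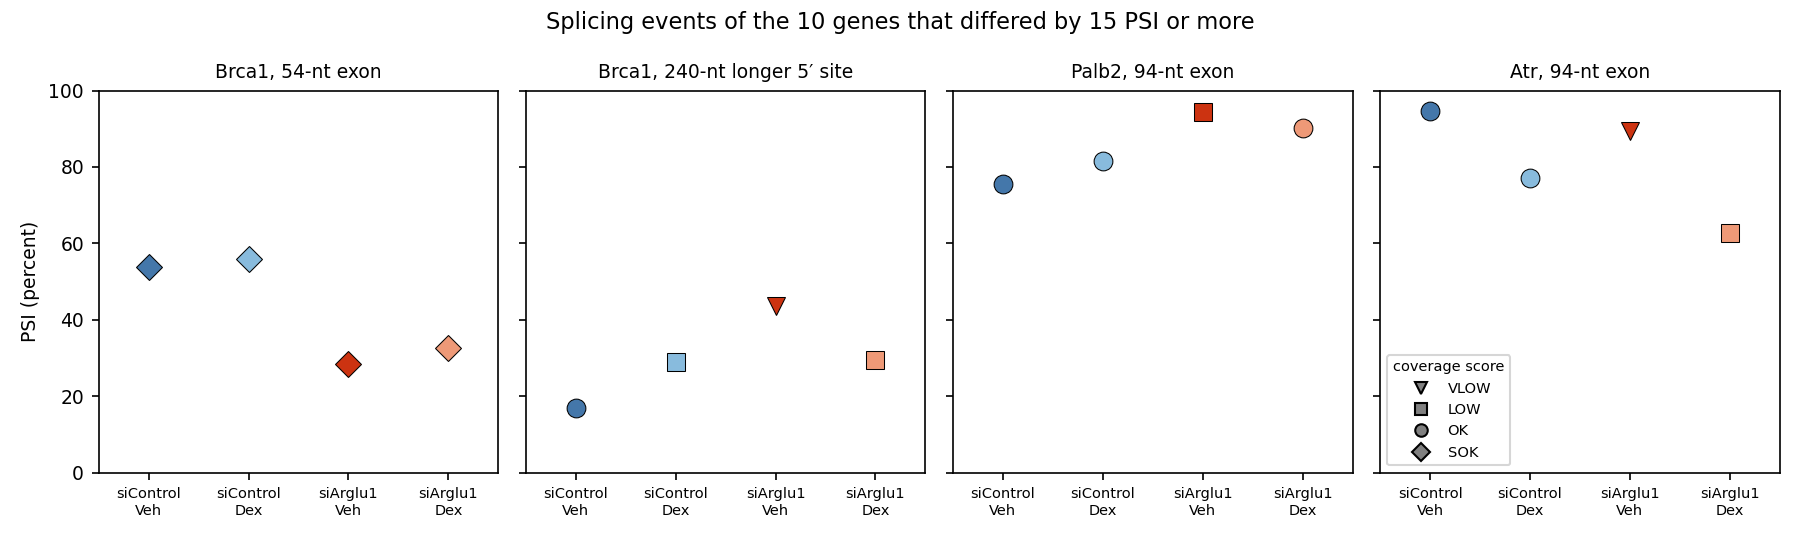
PSI (percent, axis from 0 to 100) in the 4 libraries for the 4 events of the 10 genes that differed by 15 PSI or more, with the marker giving the coverage score of each value. For the alternative splice site the scores stand for junction reads (VLOW 10 to 19, LOW 20 to 39, OK 40 to 99, SOK 100 or more). For the cassette exons the reads behind the scores are not given. The Brca1 exon is at 53.8 and 55.8 in siControl and at 28.45 and 32.65 in siArglu1, and the Atr exon is lower with Dex in siControl (77.22 against 94.74) and in siArglu1 (62.67 against 89.47).

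The 5 genes whose pattern over the 4 libraries was closest to the median pattern of the 10 were Arid4b, Dpp9, Taok1, Ncoa3 and Ago1. The measure was the Euclidean distance of centred log2 CPM, from 0.01 to 0.02, among 10619 genes with a mean of at least 1 cRPKM. Their log2 ratios in vehicle were -0.51, -0.50, -0.52, -0.53 and -0.51, and their mappable lengths ran from 3460 nt for Dpp9 to 11764 nt for Taok1. With 4 libraries, many genes can share such a pattern.

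Since the counting is not stated to use strand, reads of an overlapping gene on the opposite strand cannot be told apart from those of a member. In GENCODE M21, Tubgcp4 overlaps 15.04% of the exonic bases of Trp53bp1, a pseudogene (Gm16326) 5.64% of those of Palb2, Gm47870 5.51% of those of Fancm and Fancd2os 3.24% of those of Fancd2. The largest such overlap was 3.07% in Atr and 0.301% in Brca2. Atm, Prkdc, Brca1 and Rad50 have no annotated overlap.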

How the data were processed

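The 4 polyA libraries of N2a cells each came from the pooled mRNA of 3 cultures. The authors deposited a count of reads per gene, not normalized, and an RPKM corrected for mappability (cRPKM). They also deposited splicing tables with PSI as a percent and a coverage score in words, with junction reads for alternative 3′ and 5′ sites only. The submitters' processing notes name Bowtie and mm9, and the paper names vast-tools. Versions, annotation and strand: not given in the sources used here, apart from these names. Of the deposited columns, 2 hold the authors' own ratios (Dex over vehicle, cRPKM) and were not used.

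Reads of genes with at least 75 reads over the 4 libraries were scaled with TMM (edgeR 4.0.16, R 4.3.3, limma 3.58.1) and expressed as log2 CPM (prior count 1). Exact 95% intervals of a ratio condition on the reads of both libraries. The width of these intervals follows from the gene's own reads in both libraries, at a depth of 66074574 to 86541444 reads on genes. They cover counting error only. Thresholds were 0.81 for knockdown, a value from a figure legend of the study, and 1 for Dex, for which it gives none. The study's text called its knockdown genes by an edgeR p-value, so genes past 0.81 here are not its calls. Mappable length was taken from reads and cRPKM, and a lowess (span 0.3, 3 iterations) served to remove the trend on it. A splicing event was compared if it had a PSI in each of the 4 libraries with LOW coverage or better in 3 or more, and called at a difference of 15 PSI, after 14 duplicate rows were dropped. Sites of 1 alternative 3′ or 5′ event count once. For alternative 3′ and 5′ sites, the junction reads gave the number of reads behind each score, and cassette exons have no such reads. GENCODE M21 gave exon numbers, GC content, overlaps and the sequences.

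The members and lists were chosen with earlier results of these data known. All 10 members are named, and of the other pathway genes those past the threshold in the same direction in both knockdown pairs, plus Atrip, Chek1, Chek2, Bard1, Mre11a, Nbn, Fanci, Mtor, Smg1, Trrap, Telo2 and Tti1. Beside these, 1 gene that the rule lists by name is not reported here. Fancf, the exons just short of 15 PSI and the overlapping genes were named after their values were seen. For splicing, every compared member event with a difference of 15 PSI or more is named. Of the names on the lists, 4 had no row of that spelling. The computation was tested on simulated data.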

Additional observations from a re-analysis of the deposited data

Results flagged for a closer look

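Atm and Brca1 were flagged by a rule on sign and interval. Their ratio of Dex over vehicle had opposite signs in the siRNA states, with counting intervals that exclude 0 in each. Prkdc, Brca2, Fancd2, Fancm, Rad50 and Trp53bp1 also went from below 0 to above it, but their siControl intervals include 0. For Atm the log2 ratio was -0.087 in siControl and 0.45 in siArglu1. For Brca1 it was -0.10 in siControl and 0.11 in siArglu1. Each is the difference of 1 library from 1 other. The difference between the states is the same quantity as the knockdown ratio in Dex minus that in vehicle. It was 0.54 for Atm and 0.21 for Brca1 (counting interval 0.14 to 0.28), and it was not tested. The class medians of the knockdown ratios differed by 0.23 for Atm and 0.19 for Brca1. The median ratio of genes of similar length was -0.03 in siControl and 0.21 in siArglu1 for Atm, and -0.03 and 0.14 for Brca1.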

How the results depend on the processing

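DESeq2 size factors (DESeq2 1.42.0), library totals, deposited cRPKM (log2 with 0.1 added), a prior count of 5 and no minimum on reads left the counts of members past the threshold at 1, 1, 0 and 0 for knockdown in vehicle, knockdown in Dex, Dex in siControl and Dex in siArglu1. The sign of every knockdown ratio was kept under these 5 settings, and that of 9 of 10 members for Dex in siControl under library totals and cRPKM. A threshold of 1.5-fold gave 4, 1, 0 and 0 members, where 28%, 22.8%, 2.14% and 2.38% of all genes passed. An additive edgeR model of knockdown and Dex over the 4 libraries, with 1 residual degree of freedom, gave 8 of 10 members for knockdown, all but Brca2 and Fancm, where it also called 61.6% of all genes, and 0 for Dex. The model has no term for their interaction. Removing the trend on length gave 0 members for knockdown in Dex and medians of -0.11 (knockdown in vehicle), -0.13 (knockdown in Dex), 0.01 (Dex in siControl) and 0.017 (Dex in siArglu1). It kept the sign of fewer members, namely 7, 9, 5 and 8 of 10 in that order.

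Member events past the threshold in the same order numbered 5, 5, 2 and 4 at 10 PSI, 2, 0, 0 and 1 at 25 PSI, 1, 1, 0 and 0 with OK coverage in all libraries, and 8, 4, 5 and 3 with no coverage minimum. The shares of the events of all genes under these settings are not given, so these counts are not read as a result about the members. The event that remained with OK coverage in all libraries was the Brca1 exon. The place of Atm among genes of similar length was 4.65% in vehicle and 9.30% in Dex when their GC content also had to lie within 2 points, a setting chosen after seeing the data, and 3.31% and 5.96% when their mean log2 CPM had to lie within 1. Of the headline values under the alternative settings, 20 were labelled as moved and 52 as the same. Of all other values, 419 moved by less than their counting interval and 85 by more, of which 30 were under removal of the length trend.

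No paired analysis was possible because each group is 1 library, and for that reason none was left out in turn. Pooling hides the spread between cultures, which was not measured. Low coverage in siArglu1 Veh limits the splicing values of Atm, Prkdc and Atr and of the Brca1 splice site.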
